A study of Homo sapiens with 2 samples.

Results

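The genes described here are UGDH, MME, MAL2 and LACTB2 and the genes named as their antisense RNAs, UGDH-AS1, MME-AS1, MAL2-AS1 and LACTB2-AS1. They are 8 of 64081 genes with a listed count, and they were picked by name, for high counts of the antisense gene at loci of secretory or prostate epithelium. The counts of the antisense genes therefore chose the members, and they are given below as a description without a test. LNCaP, a cell line from a prostate carcinoma, responds to androgen. For the last 48 h its medium (RPMI-1640 with Pen-Strep and 10 mM HEPES) held 10% charcoal stripped FBS, which is depleted of androgen, and strand-specific paired-end libraries were made from the poly(A)+ RNA of 2 biological replicates. Both replicates stand in 1 column of counts and there is no androgen-treated counterpart, so no value has a replicate error and no condition can be compared. Intervals are 95% intervals and cover counting error only.

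Antisense genes are transcribed from the DNA strand opposite to their partner, and where exons of both genes lie over the same base pairs, a read can be given to one of them by its strand alone. According to the methods, TopHat was told that read 1 runs along the RNA (fr-secondstrand), whereas htseq-count was run for stranded paired-end data in its reverse mode, which takes read 1 to run against the RNA. With this combination, the count listed for UGDH-AS1 comes from the strand of UGDH and the count listed for UGDH from the strand of UGDH-AS1, and likewise for the other pairs. The methods give the reverse mode for paired-end stranded data in general and do not name these libraries there, so its use here is not known. Counts are therefore described below as listed. The genes together held 9495309 read pairs, 6.39% of those placed uniquely, and the 3 highest genes held 48.5% of the pairs on genes. Another 93.5% of the uniquely placed pairs were assigned to no gene. In stranded counting, this class also takes pairs from introns and from the strand opposite to the one counted. Of 11 genes that mark luminal prostate cells, 8 had at least 10 counts, beside 44.2% of 19404 protein-coding genes. The luminal genes ran from 6 to 6947 with a median of 18, and KRT8 alone held 6947 of their 7791 counts. The 3 stromal genes had 6 to 15, with a median of 13, and 2 of them had at least 10 counts. The 3 basal, 1 endothelial and 2 immune genes had 0 or 1. Under the settings above, these values too come from the strand opposite to the marker genes, so that the identity of the cells was not tested by them.

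The 4 sense genes belong to different pathways. UGDH oxidizes UDP-glucose to UDP-glucuronic acid, from which hyaluronan and other glycosaminoglycans are built and with which steroids such as androgens are conjugated for removal. MME, also called neprilysin or CD10, is a zinc peptidase on the surface of prostate epithelium that cuts small signalling peptides. MAL2 is an integral membrane protein of the apical transport route of polarized epithelial cells, and LACTB2 is a mitochondrial endoribonuclease of the metallo-beta-lactamase fold. Much less is known of the antisense genes, all of which are annotated as lncRNAs.

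In each of the 4 pairs nearly the whole sum of counts was listed for the antisense gene. LACTB2-AS1 had the highest count, 21102 (exact Poisson interval 20818 to 21389), beside 2 for LACTB2. UGDH-AS1 had 14288 (14055 to 14524), MME-AS1 12639 (12420 to 12861) and MAL2-AS1 8283 (8106 to 8463). The intervals cover the counting of read pairs, and the spread between cultures is not known, so the order of the antisense genes is a description. In RNA of a whole culture, few cells with much of an RNA and many cells with little of it cannot be told apart. Together the antisense genes held 56312 pairs, 0.593% of the pairs counted on genes, whereas the sense genes held 216. This share depends on the few highest genes and on the many pairs assigned to no gene. The 4 antisense genes held 10.5% of the read pairs listed for all antisense genes of pairs. Of 1736 pairs by name, 46% had a higher count for the antisense than for the sense gene. The antisense gene had a count at least 50 times that of the sense gene, with 0.5 added to both, in 9.91% of the pairs. The members were picked for such counts, and nothing is read from their place in these shares.

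**Figure D1:**
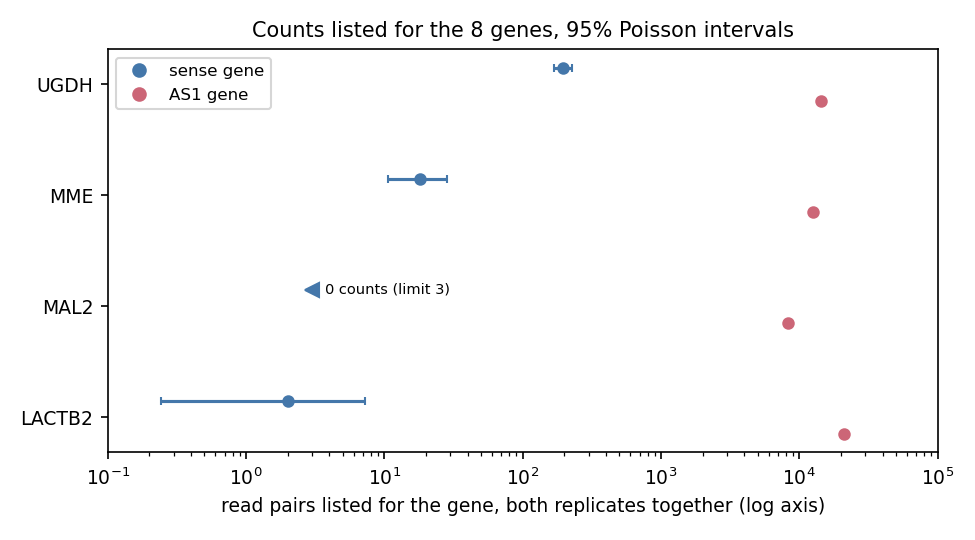
Read pairs listed for the sense gene (blue) and the AS1 gene (red) of each pair on a log axis, with exact 95% Poisson intervals. The AS1 genes lie between 8283 and 21102, the sense genes between 0 and 196, and the arrow for MAL2 marks the limit of 3 counts that a count of 0 allows.

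UGDH lies on the minus strand of chromosome 4 from 39500375 to 39529931 (GRCh37, the build also called hg19), and UGDH-AS1 on the plus strand from 39529340 to 39596327. By these coordinates the genes begin close together and overlap by 592 nt at their 5′ ends, beyond which they run away from each other. The promoter windows that RefSeq gives for them, from 250 bases before to 50 after a start site, are shown because the pair meets there. Capitals mark the GC box GGGCGG on either strand.

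UGDH: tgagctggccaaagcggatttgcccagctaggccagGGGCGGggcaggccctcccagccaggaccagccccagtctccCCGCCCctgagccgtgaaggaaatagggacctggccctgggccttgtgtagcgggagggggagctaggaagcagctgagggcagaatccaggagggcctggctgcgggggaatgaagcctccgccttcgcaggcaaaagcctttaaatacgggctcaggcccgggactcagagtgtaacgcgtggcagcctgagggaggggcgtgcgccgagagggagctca
UGDH-AS1: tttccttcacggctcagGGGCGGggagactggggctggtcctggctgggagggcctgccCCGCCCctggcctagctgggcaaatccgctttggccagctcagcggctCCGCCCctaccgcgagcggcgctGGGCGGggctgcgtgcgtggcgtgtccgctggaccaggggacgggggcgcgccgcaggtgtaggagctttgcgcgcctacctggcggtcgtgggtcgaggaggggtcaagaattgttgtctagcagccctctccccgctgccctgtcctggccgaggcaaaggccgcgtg

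On GRCh37 the first window matches chr4:39529010-39529309 on the minus strand and the second chr4:39529209-39529508 on the plus strand, with 101 bases in common. The RefSeq start sites are 400 nt apart, so RNAs that begin there do not overlap. GC boxes number 2 in the window of UGDH and 4 in that of UGDH-AS1, and 45.0% of 35116 RefSeq promoter windows hold at least 1. Both boxes of the UGDH window lie in the common bases and are the same sites as the first 2 of the UGDH-AS1 window. Neither window holds the letters of the TATA box TATAAA (11.5% of all windows) or of the CCAAT box CCAAT (34.6%), on either strand. The windows have a GC content of 66.7% and 71.7%, beside a median of 58.7% over all windows. They hold 15 and 28 CpG dinucleotides, beside a median of 14, so the window of UGDH is near that median.

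The count listed for UGDH was 196 (170 to 225), the highest of the 4 sense genes, at percentile 88.9 of the genes with at least 1 count. UGDH-AS1 was listed with 98.6% of the sum (exact binomial interval 98.4% to 98.8%) and with 72.9 times the count of UGDH (63.3 to 84.4), the smallest ratio among these pairs. Under the settings given above, 98.6% is the share of the strand of UGDH. Of the 3482 exonic nt of UGDH-AS1, 513 (14.7%) lie opposite exons of UGDH, in 1 stretch within its first exonic stretch. Only 4 of 12 annotated transcripts of UGDH, 2 of them coding, reach that stretch, and the longest transcripts of the 2 genes share 0 nt. None of the shared nucleotides is coding in UGDH. A larger part of UGDH-AS1 lies inside another gene of the minus strand: its last 3 exonic stretches, 2305 nt or 66.2% of the exonic length, lie within introns of SMIM14, which encodes a small membrane protein and had 286 counts (254 to 321). A further 585 nt (16.8%) face no gene. An unnamed lncRNA of this locus has no count and was not analysed here. The count listed for UGDH-AS1 has no position, and whether its pairs came from UGDH-AS1 or from RNA of the minus strand, such as UGDH transcripts with an upstream start or introns of SMIM14, was not tested.

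How close the strands are is seen in 30 bases of an exon that a coding transcript of UGDH shares with UGDH-AS1 (chr4:39529831-39529860), read on the strand of each gene.

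UGDH: gtcccgcctctctcgccagggaccagggag
UGDH-AS1: ctccctggtccctggcgagagaggcgggac

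MME lies on the plus strand of chromosome 3 from 154741913 to 154901493, and MME-AS1 on the minus strand from 154876159 to 154901074, wholly inside MME, over its 3′ part. The count listed for MME was 18 (10.7 to 28.4), and that for MME-AS1 was 702 times as high (444 to 1185) and 99.9% of the sum. MME-AS1 is the shortest of the antisense genes, with 2 exons and 828 exonic nt. Its first exon, 214 nt (25.8% of its length), lies entirely opposite the last exon of MME, outside the coding sequence, and the other 614 nt lie opposite an intron. This is the largest share of an antisense gene opposite sense exons among the 4 pairs, and it stays the same with the longest transcripts, with coding transcripts and with transcripts that have older identifiers. Of 17 annotated transcripts of MME, 6 reach the shared stretch, all of them coding. No other annotated gene lies within 10 kb. The middle of the shared exon (chr3:154900953-154900982) reads as follows on each strand.

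MME: gaaaggattgtaggtgcaagctgtccagag
MME-AS1: ctctggacagcttgcacctacaatcctttc

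The only intron of MME-AS1 begins and ends with the usual splice dinucleotides on the minus strand, in capitals below with 10 bases of exon before the first site and after the second.

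MME-AS1 donor: accatcatttGTgagtttca
MME-AS1 acceptor: ttttctttAGgaagaaaaaa

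The donor lies at chr3:154900851-154900870 and the acceptor at chr3:154876763-154876782. Of 28 annotated introns of the 4 antisense genes, 26 have GT and AG on the strand of the antisense gene. The deposited counts hold no record of splicing.

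MAL2 lies on the plus strand of chromosome 8 from 120177273 to 120257913, and MAL2-AS1 on the minus strand from 120226865 to 120259088, over its 3′ part. MAL2 had a count of 0, which allows up to 3 counts (a limit on one side, unlike the intervals of the other genes), and the count listed for MAL2-AS1 was at least 2761-fold higher against that limit. MAL2 was among the 5098 of 19404 protein-coding genes (26.3%) that had a count of 0. Of the 2001 exonic nt of MAL2-AS1, 202 (10.1%) lie opposite the last exon of MAL2 in 2 stretches of 36 and 166 nt, outside the coding sequence. Introns of MAL2 face 1680 nt (84.0%), and 119 nt lie beyond its 3′ end. A single annotated transcript of MAL2 reaches the shared stretches, and 3 of 6 transcripts of MAL2-AS1 do. No other annotated gene lies within 10 kb.

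LACTB2 lies on the minus strand of chromosome 8 from 71547553 to 71581420, and LACTB2-AS1 on the plus strand from 71520812 to 71575514. LACTB2 had 2 counts (0.242 to 7.22), and the count listed for LACTB2-AS1 was 10551 times as high, with an interval of 2920 to 87129 that shows how little 2 counts fix this ratio. LACTB2-AS1 is the longest of the antisense genes, with 10 exonic stretches and 5459 exonic nt. Opposite exons of LACTB2 lie 164 nt (3.0%), a whole coding exon of LACTB2 inside the 3135-nt last exon of LACTB2-AS1. LACTB2 is thus the pair in which the shared nucleotides are protein-coding. Introns of LACTB2 face 4256 nt (78.0%) and 1039 nt lie outside LACTB2. Both genes begin close to a neighbour on the other strand: LACTB2-AS1 begins 161 nt from the start of TRAM1, which takes part in protein translocation into the endoplasmic reticulum and had 1 count (0.0253 to 5.57), and LACTB2 begins 154 nt from the start of XKR9, of the XK-related membrane protein family, with 540 counts (495 to 588). TRAM1 and XKR9 have no exon opposite an exon of the pair. The small RNA genes snoU13 and RN7SL19P nearby had 22 and 0 counts, and an unnamed lncRNA was not analysed here.

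**Figure D2:**
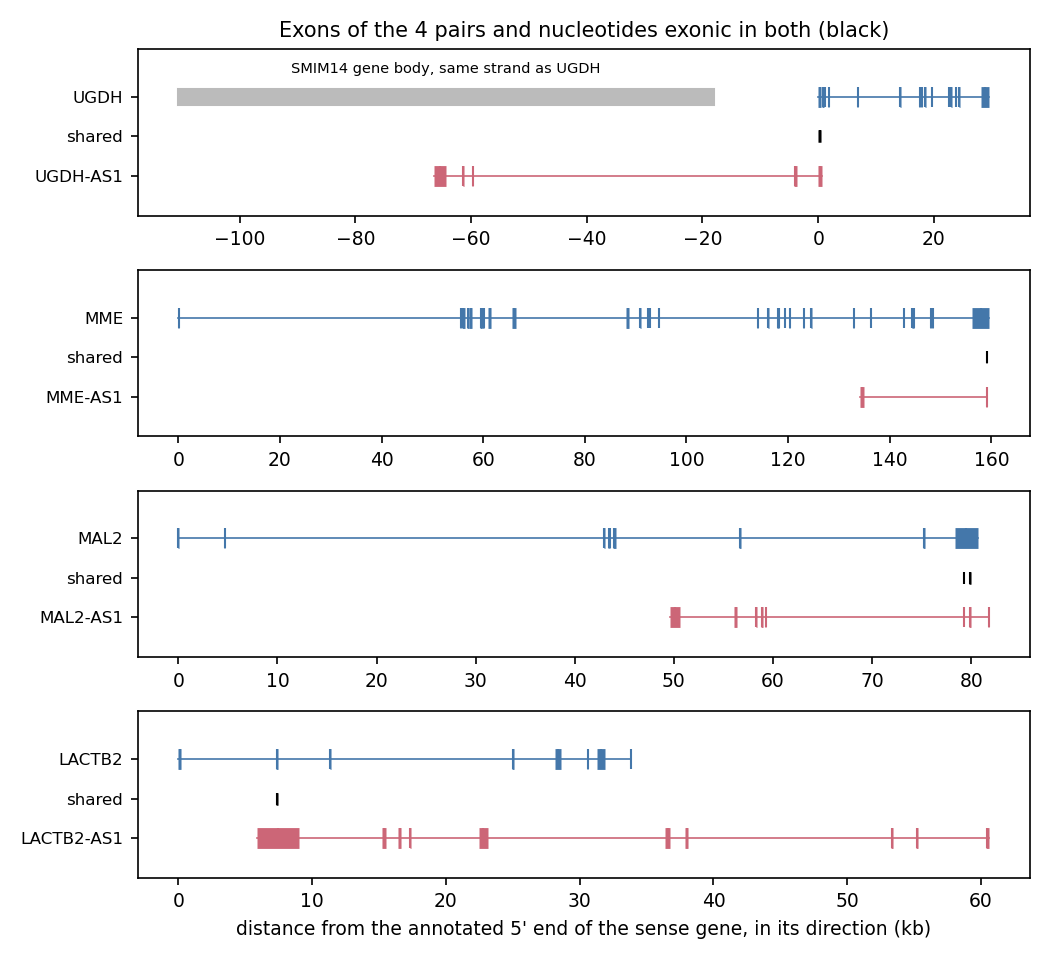
Exons of each sense gene (blue) and AS1 gene (red) by distance in kb from the annotated 5′ end of the sense gene, with nucleotides exonic in both genes in black and short exons drawn at a minimum width. UGDH-AS1 runs away from UGDH into SMIM14 (grey), MME-AS1 and MAL2-AS1 share nucleotides with the last exon of their partner, and LACTB2-AS1 shares 164 nt with an inner exon.

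The shared stretches were short in 3 of the pairs. The labels give library inserts of 150 to 250 bases, and the 214, 202 and 164 nt shared by the pairs of MME, MAL2 and LACTB2 are of about the length of 1 insert, while the 513 nt of the UGDH pair are longer. Set against the shared nucleotides, the counts listed for the antisense genes were 129 pairs per nt for LACTB2-AS1, 59.1 for MME-AS1, 41.0 for MAL2-AS1 and 27.9 for UGDH-AS1. Among the 1049 pairs by name that share exonic nucleotides, these are the ranks 2, 3, 7 and 11. The members were picked for high counts, so nothing is read from these ranks. Those of MAL2-AS1 and UGDH-AS1 also depend on the gene model. With transcripts of older identifiers the MAL2 pair shares 0 nt and the UGDH pair 293, and with the longest transcripts both share 0. A count cannot be placed along a gene, so how many of the pairs fall on the shared nucleotides was not tested.

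Per kb of exonic length, the antisense genes stood in another order than by count. MME-AS1 was highest with 15264 pairs per kb (14999 to 15533), followed by MAL2-AS1 with 4139 (4051 to 4230), UGDH-AS1 with 4103 (4036 to 4171) and LACTB2-AS1 with 3866 (3814 to 3918). The intervals of MAL2-AS1 and UGDH-AS1 overlap. Per kb of the longest transcript, MME-AS1 kept the first place with 15264, but MAL2-AS1 had 8018, LACTB2-AS1 5679 and UGDH-AS1 5127, so the order below MME-AS1 depends on the gene model. The sense genes had 48.7 pairs per kb for UGDH, 1.82 for MME, 1.04 for LACTB2 and 0 for MAL2. GC content of the exons differed little within a pair, from 44.8% in UGDH and 45.6% in UGDH-AS1 to 35.3% in LACTB2 and 40.5% in LACTB2-AS1, the pair with the widest gap.

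Among the antisense genes of the 1736 pairs, LACTB2-AS1 ranked 3rd by count, UGDH-AS1 8th, MME-AS1 9th and MAL2-AS1 11th, and 0.634% of these genes had a count at least that of MAL2-AS1. Antisense genes next to the members in this order came from pairs with higher sense counts or longer shared stretches in some cases and not in others. KXD1-AS1, next above UGDH-AS1, had 14967 counts beside 37 for KXD1 and 432 shared nt. TNS2-AS1, between MME-AS1 and MAL2-AS1, had 10475 beside 770 for TNS2 and 380 shared nt, and RPL30-AS1, next below MAL2-AS1, had 8222 beside 283 for RPL30 and 871 shared nt. With a single column of counts, likeness of pattern across samples could not be measured, and these genes are named for their place alone.

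**Figure D3:**
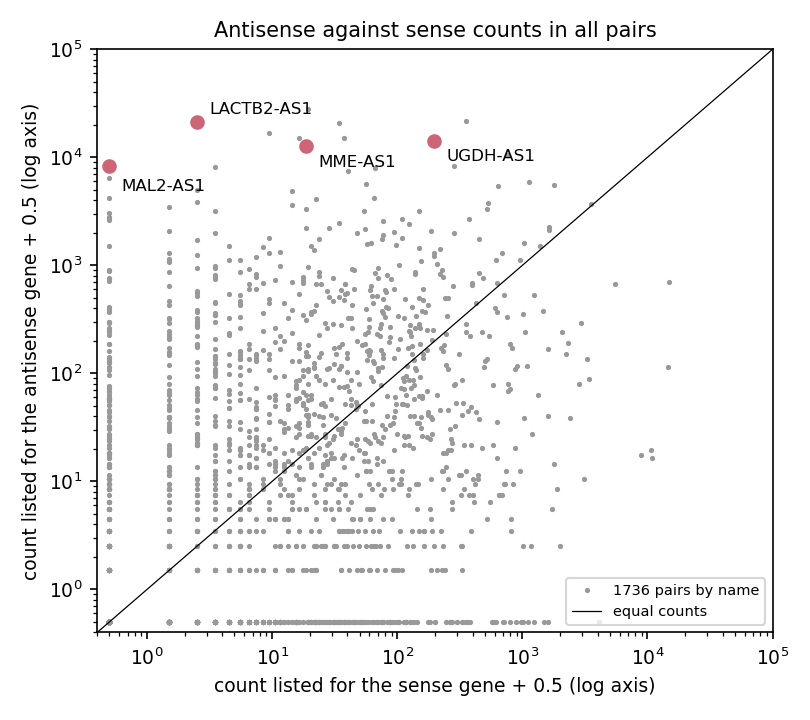
Count listed for the antisense gene against that for the sense gene in 1736 pairs by name, both with 0.5 added and on log axes, with the line of equal counts. The 4 members lie at the upper edge, from MAL2-AS1 at a sense count of 0 to UGDH-AS1 at 196.

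Over all pairs, the counts of both genes were higher where more exonic nucleotides are shared. The median count of the antisense gene was 3 in 687 pairs that share none, 12 in 204 pairs that share 1 to 100 nt, 17.5 in 412 that share 101 to 300 nt, 34.5 in 340 that share 301 to 1000 nt and 239 in 93 that share over 1000 nt. The median of the sense gene in the same classes was 5, 11, 12, 23 and 70. Per kb of exonic length, the median of the antisense gene was 1.73, 9.34, 8.87, 13.97 and 54.4, without a rise from the class of 1 to 100 nt to that of 101 to 300 nt. MME-AS1, MAL2-AS1 and LACTB2-AS1 fall into the class of 101 to 300 nt, in which LACTB2-AS1 had the highest count, and UGDH-AS1 into that of 301 to 1000 nt, in which the highest count was 15190. The count was higher on the antisense gene in 42.1% of the pairs with unequal counts that share no nucleotides and in 60.9% of those that share over 1000 nt. Across the 1049 pairs that share nucleotides, Spearman's rho of the antisense count and the shared length was 0.205. The pairs come from the same libraries and differ in exonic length, they are not replicates, and the relation is a description without a test. Of these 1049 pairs, 51.5% had the higher count on the antisense gene.

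**Figure D4:**
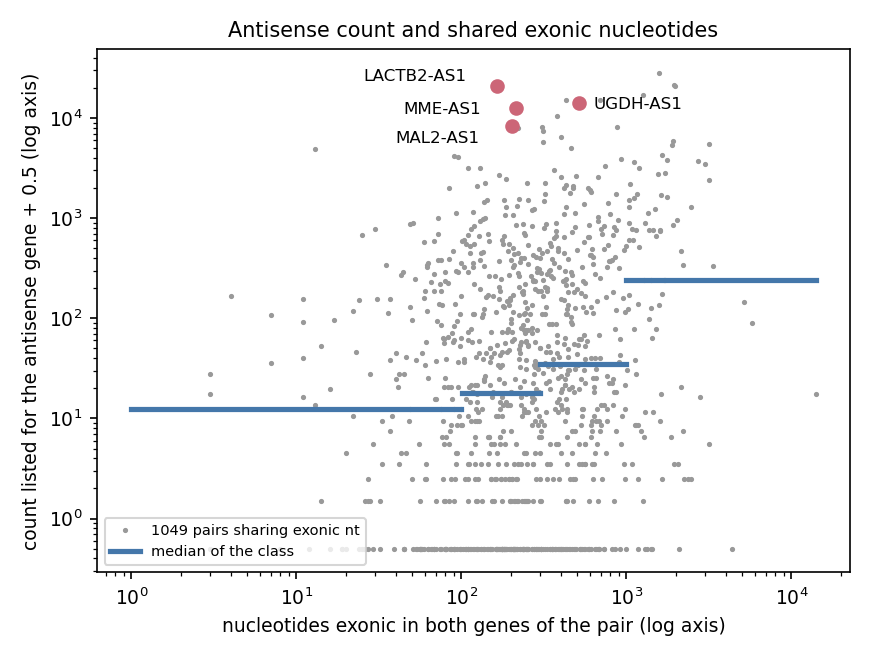
Count listed for the antisense gene, with 0.5 added, against the nucleotides exonic in both genes for 1049 pairs, on log axes, with the median of each length class in blue. The class medians rise from 12 to 239 counts, and the 4 members (red), which were picked for high counts, lie far above the median of their class.

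Genes of the same pathways were then listed as a background to the sense members, and their counts, like those of the members, are as listed and come from the opposite strand under the settings above. At least 10 counts were listed for 42 of 76 genes of 5 lists (55.3%), beside 44.2% of 19404 protein-coding genes. Their median was 12 counts, beside 6 for protein-coding genes. None of the 76 reached the lowest antisense member, from which nothing is read, because the antisense members were picked for high counts. Where exons of another gene faced those of a listed gene, the median was 18 in 31 genes, against 10 in the other 45, and among protein-coding genes it was 24 in 7112 against 3 in 12292. The surface peptidases went the other way, with a median of 7 in 5 genes against 14.5 in 8.

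Around UGDH, 7 of 15 other genes of UDP-sugars and hyaluronan had at least 10 counts, with a median of 5. HAS3, a hyaluronan synthase, was highest with 1469 (1395 to 1546), and 365 nt of its exons lie opposite exons of another gene. Its relatives HAS1 and HAS2 had 5 and 0 counts, and HAS2 has 251 nt opposite exons of another gene. In this list the median was 91 in 5 genes with facing exons and 4.5 in the other 10. CEMIP, which takes part in the breakdown of hyaluronan, had 363 and the hyaluronidase HYAL1 had 108, against 2 for HYAL2. UGP2, which makes the UDP-glucose that UGDH oxidizes, had 91, and UXS1, which turns UDP-glucuronic acid into UDP-xylose, had 0, as did the hyaluronan receptor CD44 and the nucleotide sugar transporter SLC35D2. The genes for the conjugation of steroids with glucuronic acid were lower, with at least 10 counts in 3 of 10 and a median of 2.5. UGT2B15 and UGT2B17, which conjugate androgens in the prostate, had 0 counts each, UGT2B28 had 16 and UGT2B11 had 7. The UGT2B genes resemble each other closely, so reads of 1 may be lost to several places or given to another. The highest count of the glucuronidation list was 36 for GUSB, the lysosomal beta-glucuronidase, which has 0 nt opposite exons of another gene. UGT1A6 has 1060 such nt and had 0 counts.

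Among 13 surface peptidases related to MME in family or kind, 6 had at least 10 counts, with a median of 7. MMEL1, the nearest relative of MME, was highest with 1026 (964 to 1091), and 451 nt of its exons lie opposite exons of another gene. ECE2, an endothelin-converting enzyme, had 127 and ECE1 had 7. FOLH1, the prostate-specific membrane antigen, had 50, and ACE, which makes angiotensin II, had 22. The aminopeptidase ANPEP had 1 count, and DPP4, ENPEP and ECEL1 had 0.

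The list around MAL2 had at least 10 counts in 12 of 19 genes of apical transport and the MAL family, with a median of 15. MARVELD3, a tight junction protein, was highest with 126 (105 to 150) and has 1167 nt opposite exons of another gene. PLLP has 1733 such nt and had 2 counts. In this list the median was 15.5 in 6 genes with facing exons and 15 in the other 13. MAL, the founding member of the family, had 0 counts and its relatives MALL and PLLP had 15 and 2. TPD52, whose protein binds MAL2, had 3 counts, against 39 for TPD52L1 and 108 for TPD52L2. RAB11A, RAB17 and RAB25, small GTPases of recycling endosomes, had 24, 18 and 21, and the formin INF2 and CDC42, which act with MAL2 in transcytosis, had 6 each.

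Around LACTB2, 14 of 19 genes of the metallo-beta-lactamase fold or of mitochondrial RNA had at least 10 counts, with a median of 30, the highest share and median of the lists. Of these 19 genes, 13 have an exon that faces one of another gene. INTS11, the endonuclease of the Integrator complex, had 1147 (1082 to 1215) and DCLRE1C, the Artemis nuclease, had 1067 (1004 to 1133). DCLRE1A and DCLRE1B had 0, and exons of other genes face each of these genes. Among genes of mitochondrial RNA, PNPT1 had 191 and SLIRP 254, its partner LRPPRC had 18, the helicase gene SUPV3L1 had 10 and REXO2 had 0. LACTB, a mitochondrial protein related to serine beta-lactamases in spite of its like name, had 33.

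**Figure D5:**
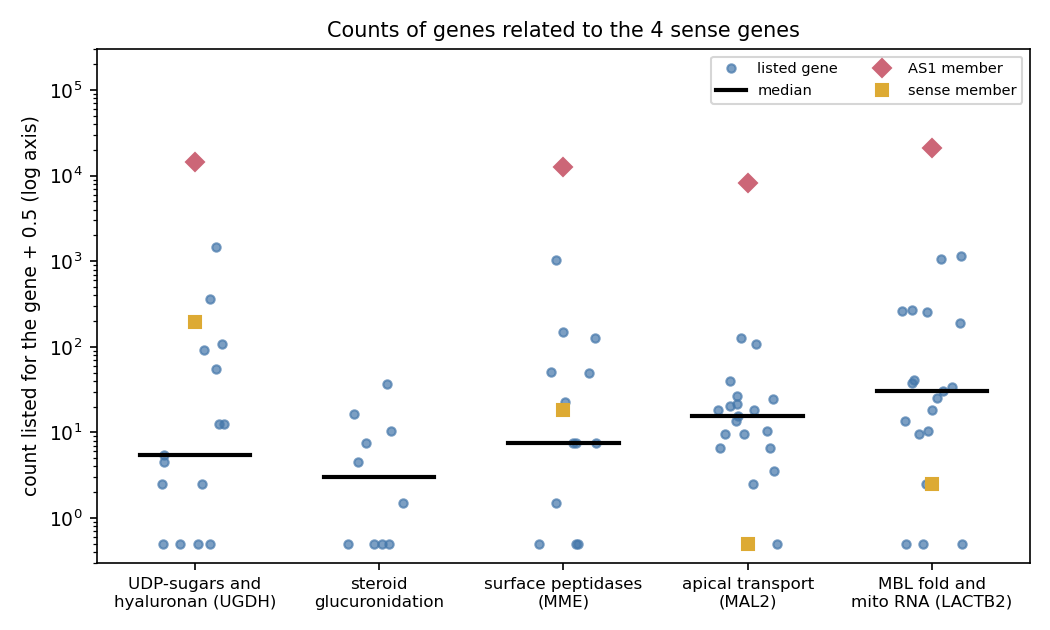
Counts, with 0.5 added, of the listed genes (blue points) on a log axis, by list, with the median as a bar and the sense (yellow square) and AS1 (red diamond) members beside the list of their pathway. The medians lie between 2.5 and 30 counts and the highest listed gene, HAS3, has 1469. The AS1 members were picked for high counts and lie above it.

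Some of the listed genes have antisense genes of their own, which unlike the members were not picked for high counts. Of the 76 genes, 7 have 9 antisense genes with a count, from 1 for CD44-AS1 to 287 for NAALADL2-AS2. Of these 9, 5 had a higher count than their sense gene, beside 46% of all pairs, and 5 had at least 10 counts, beside 51.2% of the antisense genes of all pairs. Those above their sense gene include NAALADL2-AS2 and NAALADL2-AS3, which are set against the same count. They also include HAS2-AS1 and CD44-AS1, which had few counts beside 0 for their sense genes. HAS2-AS1 had 3 counts, beside 0 for HAS2, and the pair shares 251 nt. ECE1-AS1 had 23 counts beside 7 for ECE1, with 240 shared nt, and NAALADL2-AS3 and NAALADL2-AS1 had 281 and 61 beside 150 for NAALADL2. MMEL1-AS1 had 38, PHEX-AS1 3 and MYADM-AS1 4, beside 1026, 7 and 13 for their sense genes, with which they share 0 nt.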

How the data were processed

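The counts are of LNCaP poly(A)+ RNA from 2 replicates. The submitters' processing notes and the methods name Trimmomatic 0.30, TopHat2 2.0.12 with Bowtie2 2.2.3 on hg19 and htseq-count (HTSeq 0.6.1p1). The authors deposited read pair counts per gene, without normalization, with both replicates in 1 column, so the planned values by replicate were not computed.

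Identifiers were matched without version to GENCODE 44 on GRCh37 (55538 with a gene model). The annotation of the counting was older, so exons may differ from those counted. Exonic length is the union of annotated exons. A pair joins a symbol that ends in AS plus a digit with the symbol before that ending. Poisson and binomial (Clopper-Pearson) intervals are exact, at 95%, and a count of 0 allows 3 counts. Promoter windows were taken from RefSeq (GRCh38.p14), which lists 3 of the 8 members, and matched to GRCh37. Interval and pair functions were tested on simulated data. Members and lists were chosen with earlier results of these data known. Named genes are the members, genes within 10 kb or with shared exons, the antisense genes next to a member by count (those next to LACTB2-AS1 are not reported here), and list genes: highest, lowest and those with an antisense gene. Other list genes, and markers, were named after values were seen. Python 3.11.15, numpy 2.4.6, scipy 1.17.1 and matplotlib 3.10.9 were used. Alternatives were the unit, pseudocount, library size, gene model and minimum count.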

Additional observations from a re-analysis of the deposited data

How the results depend on the processing

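Nearly all counts of each pair were listed for the antisense gene under each unit tried, which under the strand settings of the methods is the share of the strand of the sense gene. The share moved beyond its counting interval for MME, from 99.86% to 99.988% per kb of exonic length and 99.98% per kb of the longest transcript. Among pairs with unequal counts, the antisense gene was the higher in 50.1%. It was 54.2% in pairs whose counts sum to at least 10, 55.2% in pairs that share exonic nucleotides and 60.6% per kb of exonic length. With a minimum of 1 count in place of 10, the list of UDP-sugars and hyaluronan had 11 genes in place of 7, that of steroid glucuronidation 6 in place of 3 and that of surface peptidases 10 in place of 6. Shared nucleotides of the UGDH pair were 513 in the union of exons, 274 with coding transcripts of UGDH and 293 with transcripts of older identifiers, an alternative chosen after the counts were seen. They were 0 with the longest transcripts and with the basic set. The MAL2 pair shared 0 nt with the longest transcripts, as the longest transcript of MAL2-AS1 has no exon opposite the last exon of MAL2, and with older identifiers, as the only transcript of MAL2 with the long last exon has a newer identifier. The ratios of MAL2 and LACTB2 are limited by their low sense counts of 0 and 2. No paired analysis was possible because both replicates stand in 1 column of a single group, and for the same reason no replicate could be left out.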
